A study of Mus musculus with 11 samples.

Results

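The miR-322 cluster is a group of microRNA genes on the mouse X chromosome, also named after Mir322, Mir503 and Mir351. Its members were taken by name as Mir322, Mir503, Mir351, Mir542 and every gene whose name starts with Mir450. That gave 7 of the 3859 small RNA genes in the table, namely Mir322, Mir503, Mir351, Mir542, Mir450-2, Mir450-1 and Mir450b. All 7 had a value above 0 in each of the 11 libraries, and all 7 passed the filter on low values, a mean of at least 10 FPKM, that left 1419 transcripts for testing.

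Small RNA was sequenced while mouse embryonic fibroblasts (MEF) were reprogrammed to induced pluripotent stem cells (iPSC). The libraries were 1 each of uninduced MEF, of days 1 to 8 after doxycycline, of an established iPSC line and of an embryonic stem cell (ESC) line. The libraries are labelled Mbd3f/-, that is with a floxed and a deleted allele of the gene for the NuRD subunit Mbd3, so MEF shares this genotype with the later stages. The MEF of the course carried a doxycycline-inducible cassette for Oct4, Klf4, Sox2 and Myc (OKSM). Cells were induced in medium with serum and LIF at low oxygen, and were later moved to LIF with serum replacement and 2i (MEK and GSK3 inhibitors), on a day on which the sources differ. The iPSC and ESC lines were harvested from N2B27 medium with LIF and both inhibitors. The ESC library is labelled Mbd3f/- like the rest, but its column is named V6.5, so its genotype is unclear. Days 3 to 8, iPSC and ESC are described as grown on irradiated human foreskin fibroblasts. The labels name no feeders for MEF, day 1 or day 2. Feeders, medium and later days therefore cannot be told apart.

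MicroRNAs that lie close together are often cut from a common primary transcript, each hairpin giving a mature strand of which bases 2 to 8, the seed, pair with target messenger RNAs. MicroRNAs with the same seed can bind the same target sites. In mouse muscle precursors, miR-322 and miR-503 are known to slow the cell cycle, among other ways through Cdc25a, a phosphatase that drives cells into division, and miR-16 of the same seed family also represses cyclins. The seed of miR-351 is that of miR-125, a family known from fibroblasts, blood and neural cells.

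The genes lay on the minus strand of chromosome X between 53047997 and 53054349 (GRCm38), a stretch of 6353 nt. In the direction of transcription the order was Mir322 (chrX:53054255-53054349), Mir503 (chrX:53053984-53054054), Mir351 (chrX:53053255-53053353), Mir542 (chrX:53049403-53049487), Mir450-2 (chrX:53048299-53048367), Mir450-1 (chrX:53048154-53048244) and Mir450b (chrX:53047997-53048078). Between Mir351 and Mir542 lay a gap of 3767 nt, which holds the annotated long noncoding RNA Gm28730. The other 5 gaps were between 54 and 1035 nt. The 3 genes before the wide gap are called here the 5′ genes and the 4 genes after it the 3′ genes. The noncoding transcript C430049B03Rik ended 696 nt upstream of Mir322 on the same strand.

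The mature sequences below show which members share a seed with each other or with genes elsewhere, since the table gives 1 value a gene and does not separate the arms of a hairpin. They are from RefSeq (GRCm38.p6), where all 7 members were found, and the capitals mark the seed. For each member the commonly studied arm is printed, with miR-16 and miR-125b for comparison.
miR-322-5p: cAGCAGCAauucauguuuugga
miR-503-5p: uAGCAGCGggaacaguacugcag
miR-351-5p: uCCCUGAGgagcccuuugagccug
miR-542-3p: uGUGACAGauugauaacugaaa
miR-450a-5p: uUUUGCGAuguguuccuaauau
miR-450b-5p: uUUUGCAGuauguuccugaaua
miR-16-5p: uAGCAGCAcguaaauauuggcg
miR-125b-5p: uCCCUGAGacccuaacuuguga

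The seed of miR-322-5p equalled that of miR-16-5p in 7 of 7 bases, and miR-503-5p matched it in 6 of 7. The seed of miR-351-5p equalled that of miR-125b-5p in 7 of 7 bases. Mir450-1 and Mir450-2 encode the same mature miR-450a-5p, so a read of that arm cannot be assigned to either gene, and their split is uncertain. The seed of miR-450b-5p matched that of miR-450a-5p in 5 of 7 bases.

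Values are FPKM as deposited by the authors, that is mapped fragments divided by the length of the transcript and by the library's total. Each stage had 1 library, so no value has a replicate error, and p-values rest on how 9 single libraries scatter around a line. In bulk RNA, fewer cells of a type and less RNA per cell cannot be told apart. Reads were recovered from the steps of low values of genes of equal length, of which 330 of 377 (87.5%) were whole within 0.05 read. These values also set the steps, so that share is no independent check. The relative depth of the libraries ran between 0.733 (MEF) and 1.38 (day 7), and 1 read of a member was worth between 14.0 and 75.5 FPKM. The summed FPKM of 11 pluripotency microRNAs, from the miR-290 and miR-302 loci, was 46901740 on day 8, 21869147 in iPSC and 17739271 in ESC, against 21449 in MEF, where Mir302b, Mir302c, Mir302d and Mir367 were at 0. Mir295 was listed at 0 in both lines. The summed FPKM of 8 fibroblast and mesenchymal microRNAs was 11370393 on day 8, 6024738 in iPSC and 26405874 in ESC, against 25552846 in MEF, where Mir143 was listed at 0 and so is missing from the sum. The median difference of these 8 genes from MEF was -5.08 in iPSC and -1.99 in ESC (log2).

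Mir351, the third gene of the cluster, had the highest FPKM of the members in every library. It was at 5352610 FPKM in MEF, at 2202510, 935868, 562329, 170088, 103163, 93030, 31666 and 71292 FPKM on days 1 to 8, at 1841990 FPKM in iPSC and at 188758 FPKM in ESC. Each day up to day 7 lay below the stage before it.

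Mir322, the first gene of the cluster, was at 343777 FPKM in MEF, at 122575, 71075, 57678, 44198, 21616, 26662, 15238 and 21575 FPKM on days 1 to 8, at 262235 FPKM in iPSC and at 76835 FPKM in ESC. Mir503, its close neighbour, was at 20654 FPKM in MEF, at 9982, 5393, 3231, 3450, 1161, 1814, 1220 and 1966 FPKM on days 1 to 8, at 7899 FPKM in iPSC and at 2365 FPKM in ESC. In all 3 of the 5′ genes MEF was the highest library.

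Mir542 was at 135081 FPKM in MEF, at 105352, 43895, 22798, 22204, 17206, 17860, 9841 and 15551 FPKM on days 1 to 8, at 224125 FPKM in iPSC and at 73638 FPKM in ESC. Mir450b, the last gene of the cluster, was at 83876 FPKM in MEF, at 35556, 44124, 38954, 38427, 24968, 27020, 13281 and 21729 FPKM on days 1 to 8, at 347432 FPKM in iPSC and at 138942 FPKM in ESC. In both genes iPSC was the highest library.

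The same held for the miR-450a genes. Mir450-2 was at 16847 FPKM in MEF, at 12702, 5198, 6234, 5891, 4678, 4464, 3042 and 4130 FPKM on days 1 to 8, at 30081 FPKM in iPSC and at 13292 FPKM in ESC. Mir450-1 was at 7341 FPKM in MEF, at 5836, 2175, 2574, 2771, 1578, 2045, 1447 and 1924 FPKM on days 1 to 8, at 14901 FPKM in iPSC and at 6363 FPKM in ESC. Their recovered reads differed by a factor of 0.912 to 1.34 over the libraries. Day 7 was the lowest library for 6 of the 7 members and day 5 for Mir503.

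**Figure D1:**
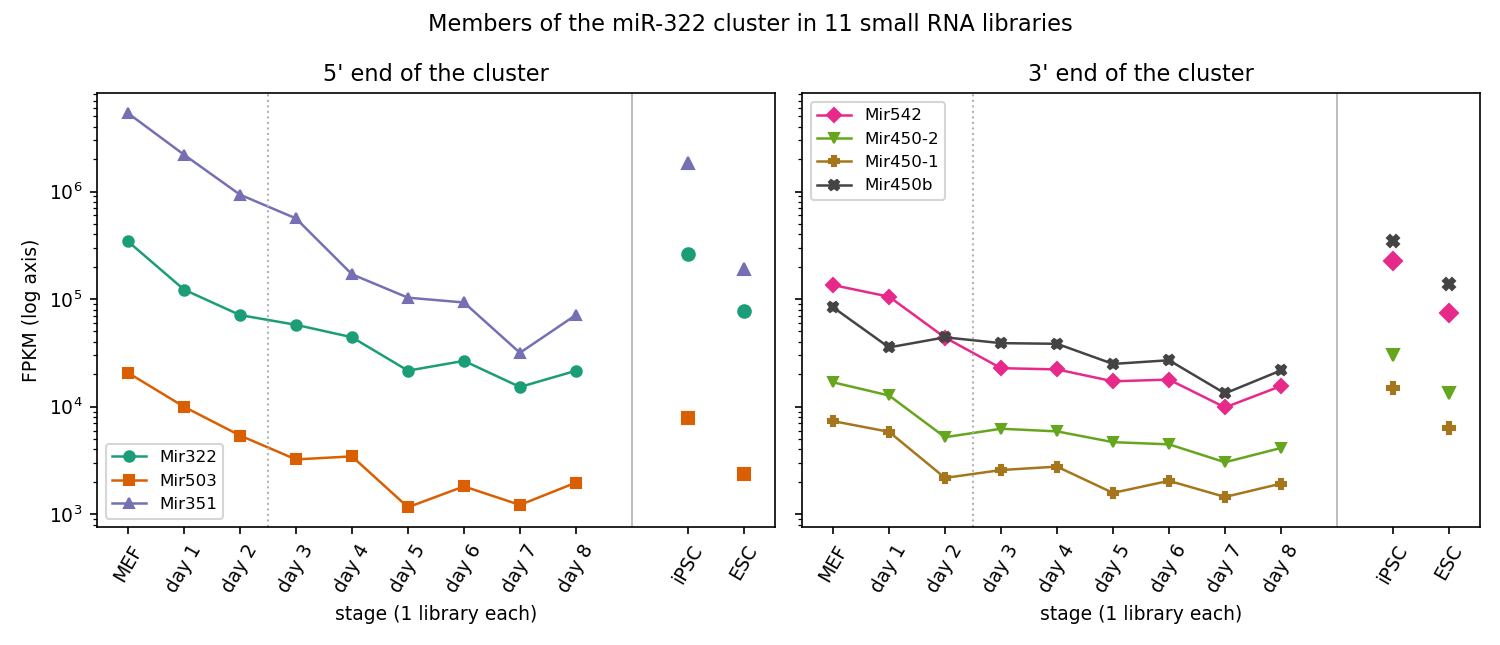
FPKM (log axis) of the 7 members of the cluster by stage, 1 library a point, with the 9 libraries of the course joined by lines, a dotted line before the first stage on feeders and the iPSC and ESC lines as separate points. Mir351 is at 31666 FPKM on day 7, against 5352610 FPKM in MEF, and all 7 members are higher in iPSC than on day 8.

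Mir503 rested on the fewest reads, 18 on day 5 (95% Poisson interval 10.7 to 28.4) and 296 in MEF. Mir450-1 had between 50 and 559 reads and Mir450-2 between 67 and 510. Mir351 had between 2255 and 201924. These intervals cover counting error only.

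Over the course from MEF to day 8, the question was whether the genes of the cluster moved together. Mir351 fell most steeply, Mir322, Mir503 and Mir542 fell too, and the miR-450 genes had the shallowest slopes. By limma on log2(FPKM + 10), 6 of the 7 members fell (adjusted p under 0.05, Benjamini-Hochberg), where 10.6% of all transcripts tested fell and 12.5% rose. After median-ratio scaling of the libraries 4 members fell, where 12.8% of all transcripts did, since Mir450-2 and Mir450b no longer passed. The median slope of the members was -0.43 per day (log2), against 0.02 over all transcripts tested.

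The slope of Mir351 was -0.87 ± 0.10 per day (log2, SE over 9 libraries; limma adjusted p = 0.000721). That of Mir322 was -0.49 ± 0.08 (adjusted p = 0.00415), that of Mir503 -0.45 ± 0.10 (adjusted p = 0.0104) and that of Mir542 -0.43 ± 0.09 (adjusted p = 0.00802). Mir450-2 and Mir450b passed narrowly, at -0.25 ± 0.07 (adjusted p = 0.0358) and -0.24 ± 0.07 (adjusted p = 0.0454). Mir450-1 had a slope of -0.24 ± 0.08 and did not pass (adjusted p = 0.0521), though it did with a filter of 100 FPKM, no filter, a pseudocount of 100 or miRNA genes only (adjusted p between 0.0217 and 0.0433).

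When any 1 of the 9 libraries was left out, Mir322, Mir503, Mir351 and Mir542 passed in all 9 fits, whereas Mir450-2 passed in 4, Mir450b in 2 and Mir450-1 in 1. In those fits 6.84% to 12.0% of all transcripts fell. Within days 3 to 8 alone, all on feeders, the 7 slopes ran between -0.64 (Mir351) and -0.13 (Mir450-1) and 0 passed in limma, with 2 at an unadjusted p under 0.05. In the same fit 5.64% of all transcripts fell.

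**Figure D2:**
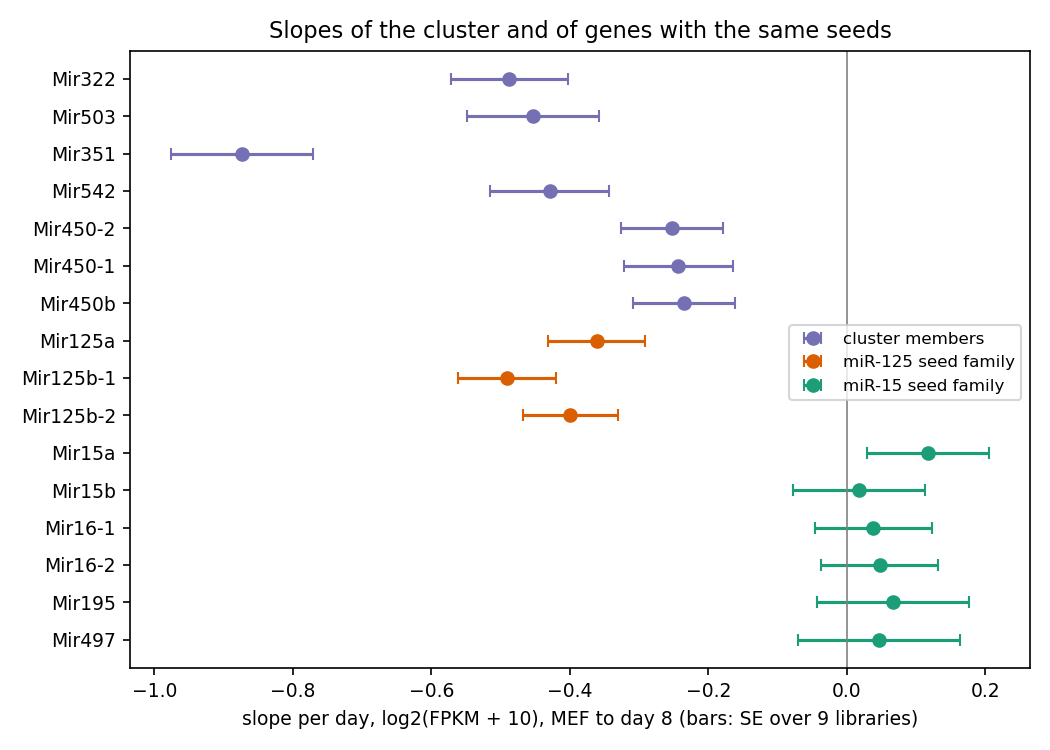
Slope per day of log2(FPKM + 10) over MEF and days 1 to 8 (9 libraries, limma), with bars of 1 SE. Shown are the 7 members and the tested genes of the miR-15 and miR-125 seed families, which share the seeds of Mir322 and Mir351. Mir351 stands at -0.87, the other members lie between -0.49 and -0.24, and the genes of the miR-15 seed family lie around 0.

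A fit with day and day squared together called 6 of the 7 members by limma's F-test, where 32.6% of all transcripts were called. This test can see a fall that ends, but a straight fall passes it too. The squared term alone passed for none of the members (limma adjusted p between 0.0996 and 0.872). For Mir322, Mir503, Mir351 and Mir542 its unadjusted p lay between 0.0164 and 0.0310. By the F-test Mir450b did not pass (adjusted p = 0.0675). All 7 members did with a filter of 100 FPKM, no filter, a pseudocount of 100, miRNA genes only or median-ratio scaling. In those settings 435 of 932, 451 of 2120, 456 of 1419, 403 of 901 and 535 of 1419 transcripts were called. The first step of the course went down for every member. On day 1 all 7 members were lower than in MEF, where 29% of all transcripts were, with differences of -1.49 (Mir322), -1.05 (Mir503), -1.28 (Mir351), -0.36 (Mir542), -0.41 (Mir450-2), -0.33 (Mir450-1) and -1.24 (Mir450b) on the log2 scale. At the step to day 3, the first stage on feeders, 5 members were lower than on day 2, where 51.4% of transcripts were, and Mir450-2 and Mir450-1 were higher by 0.26 and 0.24, as was Mir450b after median-ratio scaling.

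By day 8, 5 of the 7 members were at least 4-fold below MEF, where 17% of all transcripts were. Mir351 was 75.1-fold lower on day 8 than in MEF, Mir322 15.9-fold, Mir503 10.5-fold and Mir542 8.68-fold. Mir450-2 was 4.07-fold lower, Mir450b 3.86-fold and Mir450-1 3.80-fold. After median-ratio scaling all 7 were past 4-fold, where 22.1% of all transcripts were. The rank of day 7 below days 6 and 8 was shared with most of the table, since 72.1% of transcripts were lower on day 7 than on day 6 and 66.7% higher on day 8 than on day 7. After median-ratio scaling 5 of the 7 members were higher on day 7 than on day 6, where 44% of all transcripts were.

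To ask whether members fell at unequal rates, each was fitted relative to Mir322 in the same library, which removes any scaling of a whole library. Mir351 fell faster than Mir322, with a difference of -0.39 ± 0.11 per day (log2; limma adjusted p = 0.0099), as did 1.55% of all transcripts. It passed in all 9 fits without 1 library, with adjusted p between 0.0102 and 0.0382. Mir503 and Mir542 differed from Mir322 by 0.03 and 0.06 and did not pass (adjusted p = 0.774 and 0.632).

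The differences of the miR-450 genes from Mir322 were 0.24 ± 0.11 per day for Mir450-2 (limma adjusted p = 0.0692), 0.24 ± 0.11 for Mir450-1 (adjusted p = 0.0586) and 0.25 ± 0.11 for Mir450b (adjusted p = 0.0604), and none passed. Among all transcripts 62.3% had a higher slope than Mir322 by this test. With no filter on low values, or with a pseudocount of 100, all 3 miR-450 genes passed as well. Within days 3 to 8 the difference of Mir351 was -0.31 ± 0.16 and did not pass (adjusted p = 0.201).

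In the pluripotent lines the cluster was not at its day 8 level. All 7 members were at least 4-fold higher in iPSC than on day 8, where 22.6% of all transcripts were, with Mir503 just at that line. Mir351 was 25.8-fold higher in iPSC than on day 8, Mir450b 16.0-fold, Mir542 14.4-fold, Mir322 12.1-fold, Mir450-1 7.71-fold, Mir450-2 7.27-fold and Mir503 4.00-fold. After median-ratio scaling 6 members were past 4-fold, where 12.8% of all transcripts were, and Mir503 was not. No replicate stands behind these folds.

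ESC was higher than day 8 for all 7 members too, where 58.9% of all transcripts were, but only Mir542 and Mir450b by at least 4-fold, where 13.7% were. The differences were 2.24 (Mir542), 2.68 (Mir450b), 1.83 (Mir322), 1.72 (Mir450-1), 1.68 (Mir450-2), 1.40 (Mir351) and 0.26 (Mir503) on the log2 scale. With the libraries scaled to equal median ratios 0 members were past 4-fold, where 8.1% of all transcripts were, with Mir450b at 1.99, and Mir503 was lower in ESC than on day 8, at -0.42, and with quantile normalization at -0.04.

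The iPSC line exceeded the ESC line for all 7 members, where 55.3% of all transcripts were higher in iPSC. Mir351 was 9.76-fold higher in iPSC than in ESC, the only member past 4-fold, where 10.9% of transcripts were. Mir322 was 3.41-fold higher, Mir503 3.33-fold, Mir542 3.04-fold, Mir450b 2.50-fold, Mir450-1 2.34-fold and Mir450-2 2.26-fold. Mir654 and Gm24899 were listed because they appear with the feeder stages in an earlier account of these data. The 2 genes summed to 327076 FPKM on day 3, the first stage on feeders, against 147 FPKM on day 2. They summed to 118 FPKM in iPSC and 179098 FPKM in ESC, against 130 FPKM in MEF. The iPSC sum was thus near that of MEF, although the iPSC line is described as grown on feeders. The blood list (Mir142, Mir223, Mir150, Mir451 and Mir144) summed to 777877 FPKM in iPSC and 291309 FPKM in ESC, with Mir223 at 0 in both lines. The part of these differences in the result was not tested.

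Set against MEF, the lines had higher values at the 3′ end of the cluster than at its 5′ end. In iPSC, where 25.3% of all transcripts were lower and 64.7% higher than in MEF, the 5′ genes were lower than in MEF, by -0.39 (Mir322), -1.39 (Mir503) and -1.54 (Mir351) on the log2 scale, and the 3′ genes higher, by 0.73 (Mir542), 0.84 (Mir450-2), 1.02 (Mir450-1) and 2.05 (Mir450b), though after median-ratio scaling Mir542, Mir450-2 and Mir450-1 were lower. In ESC, where 28.6% of all transcripts were lower and 62% higher, the differences from MEF were -2.16 (Mir322), -3.12 (Mir503), -4.83 (Mir351), -0.88 (Mir542), -0.34 (Mir450-2), -0.21 (Mir450-1) and 0.73 (Mir450b), the last of which was below 0 after that scaling.

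At least 4-fold lower than MEF were 0 members in iPSC, where 10.9% of all transcripts were, and 3 in ESC, where 13.1% were. Mir450b was the only member at least 4-fold higher in iPSC than in MEF, where 39.3% of transcripts were. The iPSC and ESC differences share the MEF library. The median of all transcripts was 1.36 above MEF in iPSC and 0.98 above MEF in ESC, so the sign of a difference from MEF depends on the scaling.

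Scaled to equal median ratios, which shifts iPSC by 1.47 and ESC by 1.35 relative to MEF (log2), all members but Mir450b were lower in iPSC than in MEF, where 38.8% of all transcripts were. Those values were -1.86 (Mir322), -2.86 (Mir503), -3.01 (Mir351), -0.74 (Mir542), -0.64 (Mir450-2) and -0.45 (Mir450-1), with Mir450b at 0.58. At least 4-fold lower than MEF were then 2 members in iPSC, Mir503 and Mir351, where 18.9% of all transcripts were. In ESC they were 4, the 5′ genes and Mir542, where 21.7% of all transcripts were. All 7 members were lower in ESC than in MEF, where 41.5% of all transcripts were, between -6.18 (Mir351) and -0.63 (Mir450b).

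**Figure D3:**
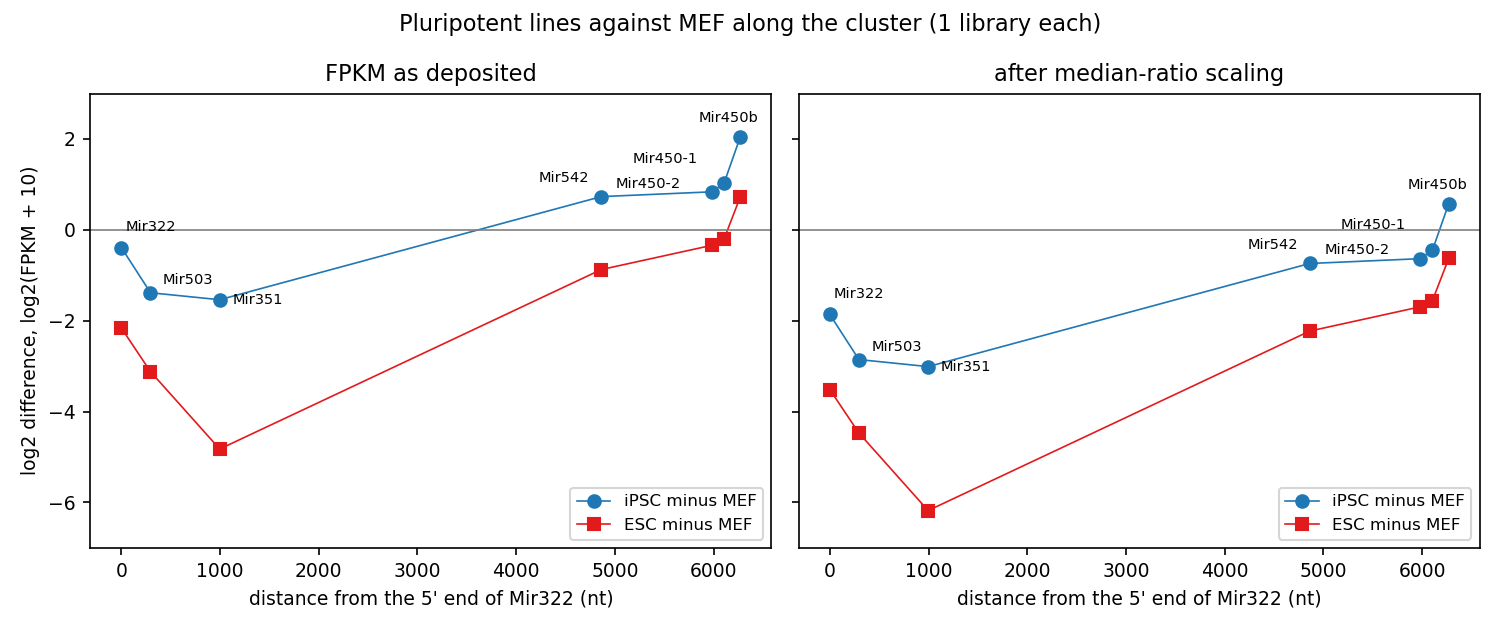
Difference of iPSC and of ESC from MEF in log2(FPKM + 10) for each member against its distance from the 5′ end of Mir322 in nt, for FPKM as deposited (left) and after median-ratio scaling (right), 1 library each. In both panels Mir351 is lowest and Mir450b highest, at -1.54 and 2.05 in iPSC as deposited, while the scaling decides which of the 3′ genes lie above zero.

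Ratios of members within a library do not change when that library is scaled by 1 factor, though quantile normalization can change them. Mir450b stood at 1.32 times the FPKM of Mir322 in iPSC, 1.81 times in ESC and 1.01 times on day 8, against 0.244 times in MEF. Mir542 stood at 0.855 times Mir322 in iPSC, 0.958 times in ESC and 0.721 times on day 8, against 0.393 times in MEF. That ratio was not particular to the lines, at 0.859 on day 1 and 0.395 on day 3. The 3′ genes thus made up more of the cluster, set against Mir322, in both lines than in MEF.

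Mir351 went the other way. It stood at 7.02 times Mir322 in iPSC, 2.46 times in ESC and 3.30 times on day 8, against 15.6 times in MEF. Mir503 stood at 0.0301 times Mir322 in iPSC, 0.0308 times in ESC and 0.0911 times on day 8, against 0.0601 times in MEF.

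In recovered reads, which are not per length, Mir351 took 75.5% of the cluster in iPSC (95% Wilson interval 75.3 to 75.7), 48.0% in ESC (47.3 to 48.6) and 61.3% on day 8 (60.2 to 62.4), against 92.1% in MEF (92.0 to 92.2). These intervals too cover counting error only, in 1 library each, and do not test the stages against each other. The 4 genes of the 3′ end together took 14.9% in iPSC, 34.5% in ESC and 21.7% on day 8, against 2.50% in MEF. The cluster as a whole had 117884 reads in iPSC and 22770 in ESC, against 219154 in MEF, and 4388 on day 7.

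**Figure D4:**
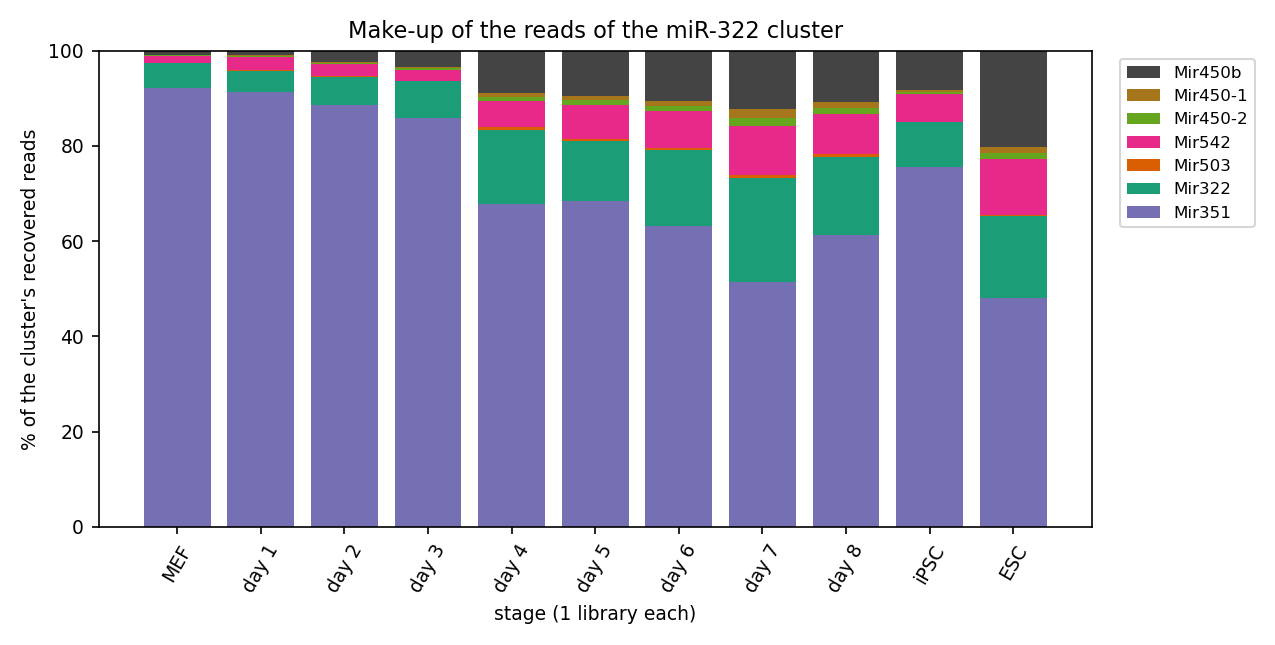
Share of the recovered reads of the cluster taken by each member, in percent, by stage, 1 library a bar. Mir351 takes 75.5% in iPSC, 48.0% in ESC and 61.3% on day 8, against 92.1% in MEF, and the 4 genes of the 3′ end together take 14.9% in iPSC and 34.5% in ESC.

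Across the 7 members, distance from the 5′ end ranked with the slope over the course (Spearman 0.89) and with the differences of iPSC and of ESC from MEF (0.86 and 0.86). This order was noticed after the values were seen, neighbouring genes share a locus and 2 share a mature sequence, so it is a description without a test.

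RefSeq gives the seed of miR-322 also to miR-6342, miR-6353 and miR-6419, which were not examined. The genes examined were the 6 tested ones of the miR-15 seed family, Mir15a, Mir15b, Mir16-1, Mir16-2, Mir195 and Mir497. Of these 0 fell and 0 rose by limma's slope (0 also at an unadjusted p under 0.05), 1 passed the F-test and the median slope was 0.05. Over all transcripts 10.6% fell, 12.5% rose and 32.6% passed the F-test. Relative to Mir322 all 6 had a higher slope, at adjusted p between 0.00116 and 0.00919, as did 62.3% of all transcripts. Mir16-1 and Mir16-2 encode the same mature miR-16-5p, at 2775840 and 2434050 FPKM in iPSC and 2637130 and 2197240 FPKM in ESC, against 952635 and 847014 FPKM in MEF.

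The 3 genes of the miR-125 seed family, which share the seed of miR-351, fell like Mir351. RefSeq also gives this seed to miR-6367 and miR-6394, which were not examined. Mir125a, Mir125b-1 and Mir125b-2 had slopes of -0.36, -0.49 and -0.40, and all 3 passed, where 10.6% of all transcripts fell. None passed relative to Mir322, and the difference of Mir351 from these genes was not tested. Between the lines the miR-125b genes differed in the opposite direction to Mir351. Mir125b-1 was at 66356 FPKM in iPSC and 304605 FPKM in ESC, and Mir125b-2 at 36827 FPKM in iPSC and 211442 FPKM in ESC, whereas Mir351 was higher in iPSC. Mir125a, at 1209200 FPKM in iPSC and 690980 FPKM in ESC, was higher in iPSC like Mir351.

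**Figure D5:**
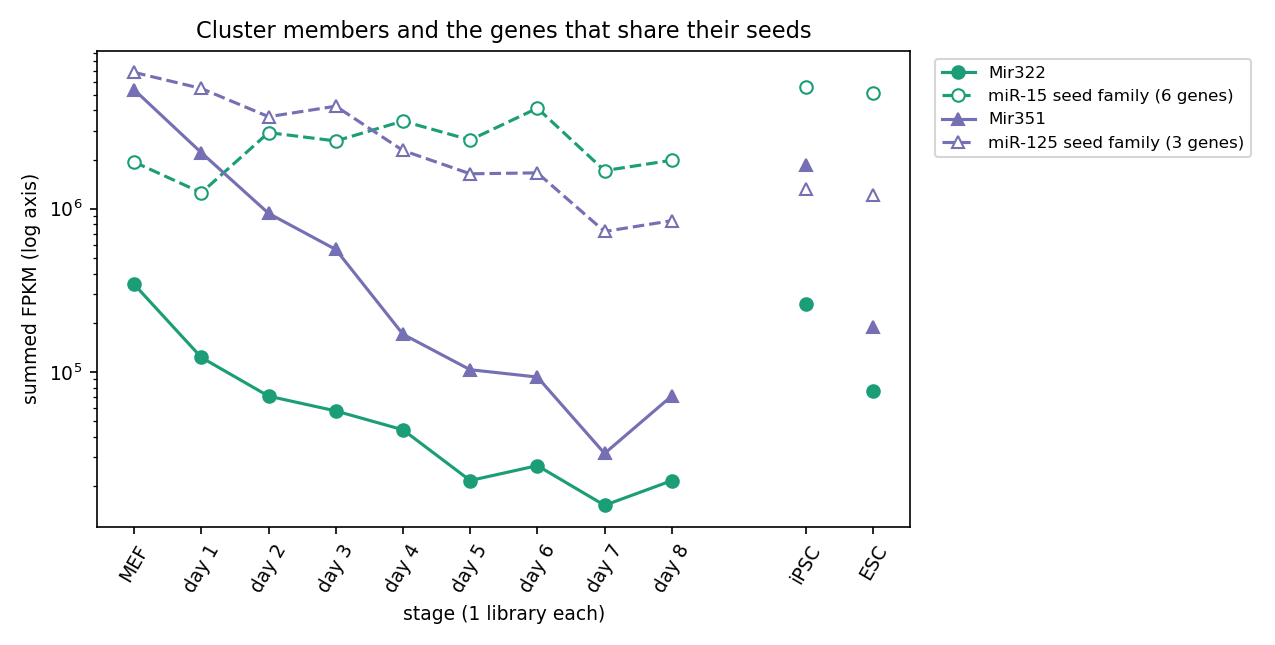
Summed FPKM (log axis) of Mir322 and of the 6 tested genes of the miR-15 seed family, and of Mir351 and of the 3 genes of the miR-125 seed family, by stage, 1 library a point. Mir322 ends at 21575 FPKM on day 8, against 343777 FPKM in MEF, while the miR-15 seed family is at 1979704 on day 8 and 1930498 in MEF.

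Another microRNA cluster of the X chromosome, miR-106a-363, lies 305429 nt away. Of its 6 genes, Mir106a, Mir20b and Mir363 rose, where 12.5% of all transcripts did, and 0 fell. All 6 had a higher slope than Mir322 by limma, as did 62.3% of all transcripts. Mir363 was at 1278920 FPKM in iPSC and 1132780 FPKM in ESC, against 2333 FPKM in MEF. Of 77 other tested transcripts of the X chromosome, 16 fell and 22 rose, with a median slope of 0.06. Over all transcripts 10.6% fell and 12.5% rose.

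Cell type markers also changed over the course. All 5 tested muscle genes fell (median slope -1.08), where 10.6% of all transcripts did. Their summed FPKM was 331 on day 8, 1675 in iPSC and 720 in ESC, against 176879 in MEF. Of the fibroblast list 5 of 8 fell and 3 did not pass (median -0.32), with slopes from -0.57 to 1.15, the last that of Mir143. Of the blood list 1 of 5 fell (median -0.30), with slopes from -1.49 to 0.33. The 1 endothelial gene, Mir126, did not pass (slope 0.05). All 11 pluripotency genes rose (median 1.18), where 12.5% of all transcripts did. The part of these cell types in the fall of the cluster was not tested. Mir654 and Gm24899, which are no cell type markers, also had rising slopes (median 1.43). They were listed for appearing with the feeder stages, so their rise follows from that choice. Their sum stepped up on day 3 and was lower, at 155975 FPKM, on day 8.

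The members were compared with each other over the 11 libraries, without a background of other gene pairs. The correlation between members in log2(FPKM + 10) ran between 0.564 (Mir503 and Mir450b) and 0.991 (Mir450-2 and Mir450-1), with a median of 0.906 over 21 pairs. Among 443 other microRNAs with a mean of at least 1000 FPKM, those closest to the members' mean pattern over the 11 libraries were Mir488 (Pearson r 0.936), mmu-mir-6944 (0.927), Mir340 (0.901), Mir34c (0.898) and Mir328 (0.884), none of them on chromosome X. All genes of a library share its depth scaling, so these values are descriptions.

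Mir488, the closest, was at 5806 FPKM in iPSC, 2134 in ESC and 189 on day 8, against 12388 in MEF. Mir34c, of the miR-34 family known as p53 targets, was at 604658 FPKM in iPSC, 129548 in ESC and 58819 on day 8, against 738053 in MEF. Both were lowest on days 7 and 8 and higher in iPSC than in ESC. They were picked for their likeness to the members, so this shared shape is no separate result.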

How the data were processed

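Small RNA was measured in 11 mouse libraries, 1 a stage. FPKM values per small RNA gene were computed and deposited by the authors, and 0 columns belonged to other samples. Per the submitters' processing notes, the tools were Bowtie2 2, Cufflinks 2.2.1 and CASAVA 1.8.2, with build mm10. Not given in the sources used here are the authors' annotation, their filter and their handling of reads from the human feeders or with several matching loci. Of 3859 gene IDs, 3712 were found in GENCODE vM21 (GRCm38) and 147 were not.

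The 1419 transcripts that averaged 10 FPKM or more were analysed on the log2(FPKM + 10) scale, which understates changes of low transcripts. Slopes on day (MEF at day 0, 9 libraries), F-tests of day and day squared and slopes relative to Mir322 were fitted with limma 3.58.1 in R 4.3.3, two-sided, with Benjamini-Hochberg adjustment over all transcripts and a threshold of 0.05. The fits were tested on simulated data. Pairs of stages have 1 library each and no test, and 4-fold was used to count. A count test was not run, because the recovered reads rest on steps and on transcript length.

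All members were named, with the 5 microRNAs of most similar pattern. The members and the 9 lists were chosen with earlier results of these data known. Alternatives were other pseudocounts, filters and scalings, leaving out libraries, and days 3 to 8 alone.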

Additional observations from a re-analysis of the deposited data

Results flagged for a closer look

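The 3 genes before the last of the cluster stood out because the 2 pluripotent lines differed from MEF in opposite directions on the deposited scale. Mir542 was at 0.73 in iPSC minus MEF and -0.88 in ESC minus MEF (log2), Mir450-2 at 0.84 and -0.34, and Mir450-1 at 1.02 and -0.21. The difference between the lines was not tested, since each had 1 library and both share the MEF library. After median-ratio scaling all 3 genes were below MEF in both lines, so the opposite signs depend on the scaling. All 3 were higher in iPSC than in ESC.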

How the results depend on the processing

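Across 18 settings, the count of falling members was 4 to 6 when 1 library was left out, and that of the F-test likewise 4 to 6. In those fits 6.84% to 12.0% of all 1419 transcripts fell, and the F-test called 337 to 471 of them. Both member counts were 7 at a filter of 100 FPKM, with no filter, with a pseudocount of 100 and with miRNA genes only. There 16.0%, 6.84%, 11.1% and 17.5% of all transcripts fell. The F-test called 435 of 932, 451 of 2120, 456 of 1419 and 403 of 901 there. With median-ratio scaling 12.8% of all transcripts fell, the F-test called 535 of 1419, and the member counts were 4 and 7. They were 5 and 6 with quantile normalization and with a pseudocount of 1. There 12.5% and 8.95% of all transcripts fell, and the F-test called 480 and 430 of 1419. Without days 7 and 8 both member counts were 4, where 4.86% of all transcripts fell and the F-test called 218 of 1419. Within days 3 to 8 alone, both were 0 in limma, with 2 members each at an unadjusted p under 0.05; in that fit of fewer libraries the slope called 80 transcripts falling and 66 rising, and the F-test 0. The count of members that differed in slope from Mir322 was 1 as reported and without any 1 library, 0 within days 3 to 8, 2 at a filter of 100 FPKM, 4 with no filter, 4 with a pseudocount of 100 and 2 without days 7 and 8. The slope of Mir503 relative to Mir322 changed sign, to -0.044 with quantile normalization and -0.021 without days 7 and 8. The median of the members over both lines minus MEF was -0.07, and -1.49 with median-ratio scaling, -1.18 with quantile normalization, -0.88 without iPSC and 0.73 without ESC. Over both lines minus day 8 it was 2.72, and 1.97, 2.11, 1.72 and 3.60 in those settings. Where not stated the cause was not tested. No paired analysis was possible because each stage had 1 library and the replicate number 1 only names it. Mir503, with 18 reads on day 5, is the member most limited by depth.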
